A study of Homo sapiens with 7 samples.

Results

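The regions described here are the side peaks of PDS-treated K562 cells, that is, CTCF peaks that were called after treatment with pyridostatin (PDS), overlapped no CTCF peak of control cells and lay within 1 kb of a PDS peak that did. They were found by position alone on chromosomes 1 to 22 and X. Their number was 3621 of the 32893 peaks in the PDS list and of the 65962 peaks in the PDS and control lists together. A shared PDS peak with a side peak is called a parent below, and 3471 of the 25868 shared PDS peaks were parents. The members were thus chosen from the measured peak calls, and their absence from the control list and closeness to a shared peak are part of the choice and are not results. CTCF chromatin immunoprecipitation with sequencing (ChIP-seq) was run on control cells, which received no ligand (2 CTCF samples and 1 IgG sample analysed here), and on cells kept in 10 μM PDS for 24 h (2 CTCF samples and 2 IgG samples). K562 is a single established erythroleukaemia line, and all groups grew in medium with 0.4% fetal bovine serum. Peaks were called once per condition on both CTCF samples over IgG, so the lists hold no value per replicate and no read depth, and no replicate error can be given. Shares are given with Wilson 95% confidence intervals and differences of shares with Newcombe intervals, which cover counting error only, because peaks of 1 list are not replicates. Peak lists hold no expression values, and the markers of the cell line were not checked.

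CTCF is a zinc finger protein that binds a long DNA consensus, stops cohesin as it extrudes chromatin loops and keeps regularly placed nucleosomes on both flanks of its sites. G-quadruplexes (G4s) are folded structures of guanine-rich DNA, common at promoters, and PDS is a small molecule that binds and stabilizes them. Per the study's methods the chromatin was digested with micrococcal nuclease, which cuts mainly between nucleosomes, and the lysate was then sonicated.

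Examples of the side peaks are shown first, as the forward strand of GRCh37 (hg19), to show what DNA lay under them. The next 3 are the side peaks of highest fold enrichment over IgG that held or touched a G4 motif, with the motif in capitals (4 runs of 3 or more G separated by 1 to 7 nt, read as C runs where the motif is on the reverse strand). They lay at chr2:238421901-238422000 in an intron of MLPH, which links melanosomes to a myosin motor, at chr16:49035051-49035200 between genes, 280623 bp downstream of the start of CBLN1, and at chr1:210580351-210580500 in an intron of HHAT, the acyltransferase of Hedgehog ligands. In the MLPH peak the motif entered the last bases only and continued outside the peak.
MLPH intron: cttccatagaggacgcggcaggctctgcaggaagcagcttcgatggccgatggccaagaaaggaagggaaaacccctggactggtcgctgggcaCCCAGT
Downstream of CBLN1: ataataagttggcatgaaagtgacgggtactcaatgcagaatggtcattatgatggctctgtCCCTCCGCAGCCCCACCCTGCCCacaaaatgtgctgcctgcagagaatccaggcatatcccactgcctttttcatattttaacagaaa
HHAT intron: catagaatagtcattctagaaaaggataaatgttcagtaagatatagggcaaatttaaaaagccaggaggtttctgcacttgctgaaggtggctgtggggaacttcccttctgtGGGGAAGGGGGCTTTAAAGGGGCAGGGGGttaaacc

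A CTCF consensus was rare under side peaks. Only strict matches to the consensus were counted, here and below, so weaker CTCF sites were missed. Within the same choice, the pair of highest fold that held a match is shown with the 15-letter exonuclease ChIP consensus in capitals. They lay at chr21:28088801-28088900 between genes, 128877 bp downstream of the start of ADAMTS1, a secreted metalloproteinase, and at chr1:156660101-156660200 in the promoter of a non-coding gene, 12952 bp upstream of NES, the intermediate filament nestin. Their folds over IgG were 17.7 and 8.44. The side peak of highest fold in the whole set held neither a G4 motif nor a strict match to the consensus. It lay at chr19:51672651-51672800 in an intron of the pseudogene SIGLEC17P, with a fold of 32.9. On the reverse strand its sequence held a stretch that missed the consensus by a single letter (ggagccctctagtgg as printed), which the strict search did not count.
Downstream of ADAMTS1: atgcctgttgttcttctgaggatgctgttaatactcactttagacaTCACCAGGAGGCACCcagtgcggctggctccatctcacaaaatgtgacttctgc
Upstream of NES: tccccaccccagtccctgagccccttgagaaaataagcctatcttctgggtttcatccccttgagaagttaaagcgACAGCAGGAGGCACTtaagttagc
SIGLEC17P intron: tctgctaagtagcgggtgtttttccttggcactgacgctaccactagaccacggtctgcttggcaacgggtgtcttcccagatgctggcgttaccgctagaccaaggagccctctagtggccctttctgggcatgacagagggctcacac

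Side peaks were narrow and weak members of the list, as PDS-only peaks were in general. Their median width was 100 bp (quartiles 100 and 150 bp), as was that of isolated PDS-only peaks, which had no peak of either list within 1 kb, against 400 bp for all shared PDS peaks. Of the 3621, 2317 (64.0%, 62.4 to 65.5%) had the narrowest width of the list, 100 bp, and a further 833 were 150 bp wide. Widths were not spread evenly beyond that, since 58 were 200 bp and 57 were 250 bp wide but 167 were 300 bp wide. Their median fold over IgG was 12.7 (quartiles 9.09 and 15.3, range 3.46 to 32.9), against 18.4 for all shared PDS peaks and 13.8 for the 2515 isolated PDS-only peaks. By p-value 3591 side peaks (99.2%) and by fold 3154 (87.1%) fell in the weaker 50% of the PDS list. Peaks without overlap with the other list made up 21.4% of all PDS peaks and 22% of all control peaks, and nothing is read from that share here, because the rule used the same overlap.

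The same rule applied to the control list gave 989 control-only side peaks and 1018 control parents. Side peaks thus made up 51.5% of the 7025 PDS-only peaks and 13.6% of the 7268 control-only peaks, a difference of 37.9 percentage points (36.5 to 39.3). With the rule applied anew to the 50% of peaks of each list with the lowest p-values, this difference was 3.999 points (2.96 to 5.08). Of the 3621 side peaks, 3591 lay outside that 50%, so most side peaks of the reduced PDS list were other peaks. Parents made up 13.4% of shared PDS peaks (13.0 to 13.8%) and 3.95% of shared control peaks (3.71 to 4.19%). Shared peaks that had another shared peak within 1 kb differed far less between the lists, at 11.7% (11.3 to 12.1%) of those in PDS-treated cells and 10.3% (9.94 to 10.7%) of those in control cells. Peak positions were multiples of 50 bp for PDS and of 60 bp for control cells, and the treatment and such differences between the calls of the lists cannot be told apart.

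Most parents had 1 side peak (3044 of 3471, 87.7%), while 396 had 2 and 31 had 3. Side peaks stood on both sides of 275 parents (7.92%, 7.07 to 8.87%). A smaller number of side peaks, 295 (8.15%), lay within 1 kb of more than 1 shared peak. For 3382 side peaks (93.4%) the nearest control peak was the control counterpart of the parent, which follows largely from the rule. The median gap from a side peak to a control peak was 340 bp, 1290 (35.6%) were under 250 bp from one, and 18 touched a peak without overlap. For the same reason few, 89 (2.46%), had no control peak within 1 kb.

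The gap between a side peak and the shared peak was not spread evenly. No gap under 200 bp occurred between PDS peaks or under 240 bp between control peaks, of any class. The most frequent gap was 250 bp, with 965 side peaks (26.7%), and 565 lay at 200 bp. The number then fell to 140 at 350 bp, rose to 293 at 400 bp and 288 at 450 bp, fell to 113 at 550 bp and rose again to 158 at 600 bp. Control-only side peaks had maxima at 240 bp (320 peaks), 420 bp (135 peaks) and 600 bp (68 peaks). Smaller maxima stood at 800 bp for PDS (96 peaks) and at 900 bp for control (36 peaks), which do not match. At the limit of the rule, the 157 side peaks with a gap of 900 to 1000 bp had a median fold of 11.7, and the 114 PDS-only peaks at the next 3 steps of 50 bp outside it had a median fold of 12.4. In the central 200 bp, 14 of the 157 and 4 of the 114 held a G4 motif, and 2 of each held a consensus. These differences were not tested.

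**Figure D1:**
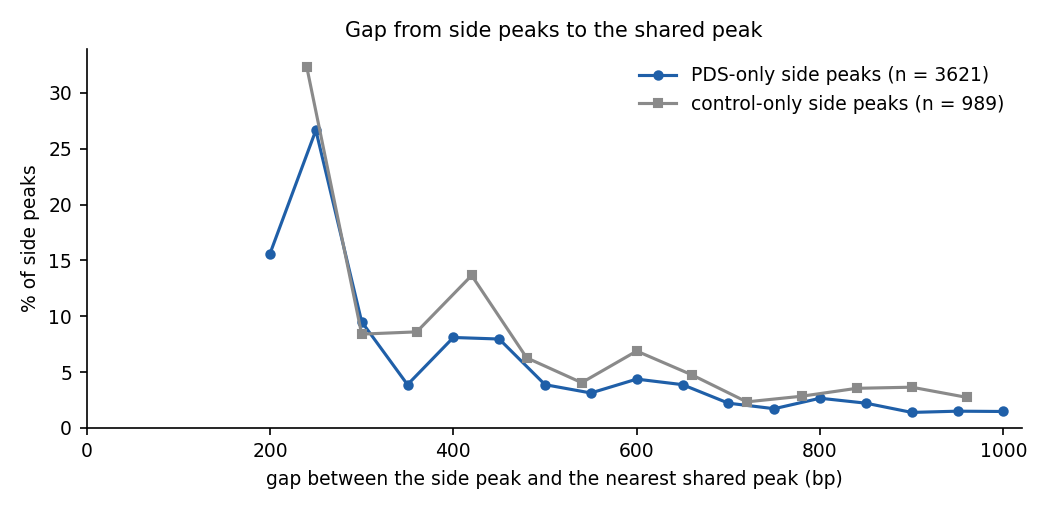
Share of side peaks (vertical axis, % of the side peaks of each list) by the gap to the nearest shared peak of the same list (horizontal axis, bp), for 3621 PDS-only and 989 control-only side peaks. Both lines fall in waves, with maxima at 250, 400 and 600 bp for PDS and at 240, 420 and 600 bp for control, and smaller ones at 800 bp for PDS and 900 bp for control.

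Waves were also seen when distance was counted from the CTCF consensus inside the parent. For 952 side peaks the nearest shared peak held exactly 1 consensus, and the centres of these side peaks gathered at 6 distances from it, with maxima of the smoothed distribution (Gaussian, SD 15 bp) at 324, 499, 681, 884, 1074 and 1291 bp. Neighbouring maxima were 193 bp apart on average. The maxima come from these same side peaks, so the numbers at them describe the depth of the waves only. Within 20 bp of the maxima from 324 to 1074 bp lay 37, 71, 107, 71 and 38 side peaks, 324 in all. Within 20 bp of the points midway between maxima lay 4, 12, 20, 19 and 20, or 75 in all. The period that fitted the distances best between 120 and 300 bp was 190 bp, with a vector strength of 0.352, a measure that is 1 for a perfect periodicity. As the best of all periods tried it lies above 0 without any, and no value without periodicity was computed for these numbers of peaks. The best period was 190 bp for the 520 side peaks 5′ of the consensus and for the 432 side peaks 3′ of it. The 5′ set had 6 maxima with a mean spacing of 191 bp, and the 3′ set had 7 with 162 bp, the last at 1222 and 1302 bp.

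Most maxima of the control-only side peaks stood at nearly the same distances. The 197 control-only side peaks with 1 consensus in the shared peak had maxima at 333, 498, 690, 889, 1058 and 1241 bp and a best period of 186 bp (vector strength 0.392). Around the PDS maxima up to 1074 bp lay 77 of them, and around the midway points 15. At 324 bp the numbers were 37 of 952 for PDS and 2 of 197 for control. At 499, 681, 884, 1074 and 1291 bp they were 71, 107, 71, 38 and 30 for PDS and 16, 30, 20, 9 and 1 for control. The smallest gap between peaks and the narrowest width were 240 and 120 bp in the control list. In the PDS list they were 200 and 100 bp. The calls thus left control side peaks less room near 324 bp, and nothing is read from the difference there. Where the distance of the same 952 PDS side peaks was counted from the centre of the parent instead of its consensus, the best period was 160 bp and the vector strength only 0.0838. For 411 neighbouring shared PDS peaks without a consensus, the maxima stood at 327, 511, 678, 852, 1074, 1201 and 1317 bp. Their best period was 178 bp, with a vector strength of 0.144.

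The edges of the parents were placed in steps as well, and those at 381, 564 and 739 bp fell in between the steps of the side peaks. For parents with 1 consensus the edges gathered at 51, 213, 381, 564, 739 and 909 bp from it (1760 edges, best period 181 bp, vector strength 0.509). The edges of other shared PDS peaks with 1 consensus did so as well, at 43, 195, 380 and 558 bp (7326 edges, best period 182 bp, vector strength 0.419). A side peak centre lies beyond the edge of its parent by the gap and part of its own width. No gap between PDS peaks was under 200 bp, and the most frequent gap of side peaks was 250 bp. The steps of the edges and of the side peak centres are therefore tied by construction and are not separate observations. The cause of the steps was not tested.

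**Figure D2:**
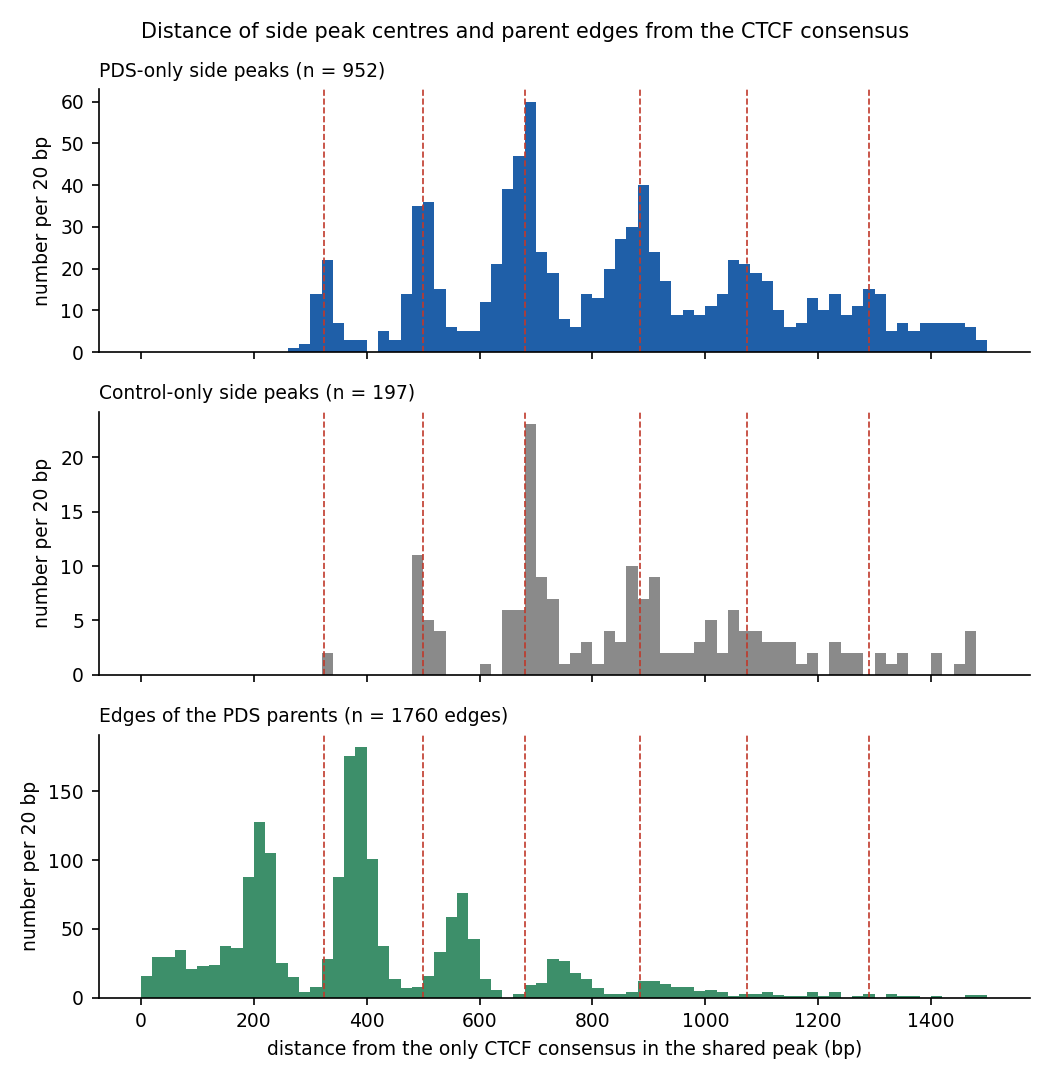
Number of side peak centres per 20 bp (upper panel, 952 PDS-only, middle panel, 197 control-only) and of parent edges (lower panel, 1760 edges) by distance from the only CTCF consensus in the shared peak (horizontal axis, bp). Dashed lines mark the 6 PDS maxima at 324 to 1291 bp, and the control-only side peaks have their own at 333 to 1241 bp. Near the first line lie 2 control-only side peaks, where the wider smallest gap and width of control peaks left less room. Parent edges gathered at 381, 564 and 739 bp, between the first 4 lines, and at 909 bp, near the line at 884 bp. Side peak centres lie beyond these edges by the gap and part of their own width, so the panels are not independent.

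A wider parent places its side peaks farther from a consensus inside it, so the widths at each step follow from the rule and are a description. Side peaks at the step of 324 bp (those under 411 bp) stood beside parents with a median width of 275 bp, those at 681 bp beside parents of 700 bp and those at 1074 bp beside parents of 950 bp. The median fold was near the same at all steps, from 12.7 to 13.8, and the median width was 100 bp at each. Side peaks stood 5′ of the consensus somewhat more often than 3′, in 520 of 952 cases (54.6%, 51.4 to 57.8%), and in the control list in 109 of 197 (55.3%, 48.4 to 62.1%). At the step of 324 bp the sides differed most, with 42 of 52 side peaks (80.8%, 68.1 to 89.2%) on the 5′ side, and at 681 bp the 5′ share was 45.4% (39.2 to 51.7%). In the reduction to the 50% of peaks with the lowest p-values the share 3′ of the consensus was 59.5% (44.5 to 73.0%). By median the parents themselves reached about equally far on both sides, 376 bp on the 5′ and 376.5 bp on the 3′ side of the consensus. Of 880 parents, 413 (46.9%) reached farther on the 5′ side. Other shared peaks had medians of 215 bp 5′ and 230 bp 3′, and 43.9% reached farther 5′. About gene starts the interval spanned 50%, as 98 of 207 side peaks (47.3%, 40.7 to 54.1%) whose parent covered exactly 1 start lay downstream.

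The parents with the most side peaks show the arrangement at single loci. Among the 10 parents with 3 side peaks and the highest fold, 5 held 1 consensus, printed here on its own strand with the consensus in capitals, because distances are counted from it. They lay in an intron of DENND2A (an exchange factor of Rab GTPases, consensus at chr7:140353383-140353413 with its flanks), in an exon of P2RX3 (an ATP-gated channel of sensory neurons, chr11:57117469-57117499), in an intron of AAK1 (a kinase of clathrin adaptors, chr2:69792631-69792661), in an intron of TNFRSF8 (the receptor CD30, chr1:12178839-12178869) and upstream of FAM131C (chr1:16405534-16405564).
DENND2A: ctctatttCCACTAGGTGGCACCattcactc
P2RX3: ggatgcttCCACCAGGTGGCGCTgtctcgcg
AAK1: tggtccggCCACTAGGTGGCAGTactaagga
TNFRSF8: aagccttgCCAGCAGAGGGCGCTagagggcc
Near FAM131C: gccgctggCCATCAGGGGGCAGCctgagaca

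In DENND2A the parent (chr7:140352851-140353950, fold 34.6) was 1100 bp wide and its control counterpart 780 bp. Its side peaks were centred 903 bp 5′ and 872 and 1497 bp 3′ of the consensus, with folds of 8.25, 13.8 and 7.67. In P2RX3 the parent (chr11:57117101-57117700, fold 31.1) was 600 bp wide, and its side peaks stood 717 and 1067 bp 5′ and 1233 bp 3′ of the consensus, with folds of 6.08, 17.3 and 15.8. The AAK1 parent (chr2:69792251-69792850, fold 30.5) had side peaks 655 and 1055 bp 5′ and 770 bp 3′, with folds of 17.7, 8.10 and 15.3. These 3 loci each had side peaks on both sides of a single consensus, and most of the side peaks at P2RX3 and AAK1 were 100 bp wide. The TNFRSF8 parent (chr1:12178601-12179400, fold 29.0) had them 703 and 1253 bp 5′ and 872 bp 3′ of the consensus, and that near FAM131C (chr1:16405351-16406150, fold 28.6) 623 and 1098 bp 5′ and 1427 bp 3′.

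The other 5 of these parents held no match to the consensus. The strongest of all 10 lay in an intron of MAPKAPK3, a kinase activated by p38 (chr3:50653001-50653950, fold 36.1), with side peaks of fold 16.3, 11.6 and 7.87, each 250 or 300 bp from its nearest shared peak. Side peaks on both sides also stood in USP2-AS1, an antisense RNA of the deubiquitinase gene USP2 (fold of the parent 33.7), in an exon of PIK3CD, the delta catalytic subunit of PI3-kinase (29.99), in an intron of NAXE, an NAD(P)HX epimerase (28.1) and between genes near PSRC1, a spindle protein gene (29.4).

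**Figure D3:**
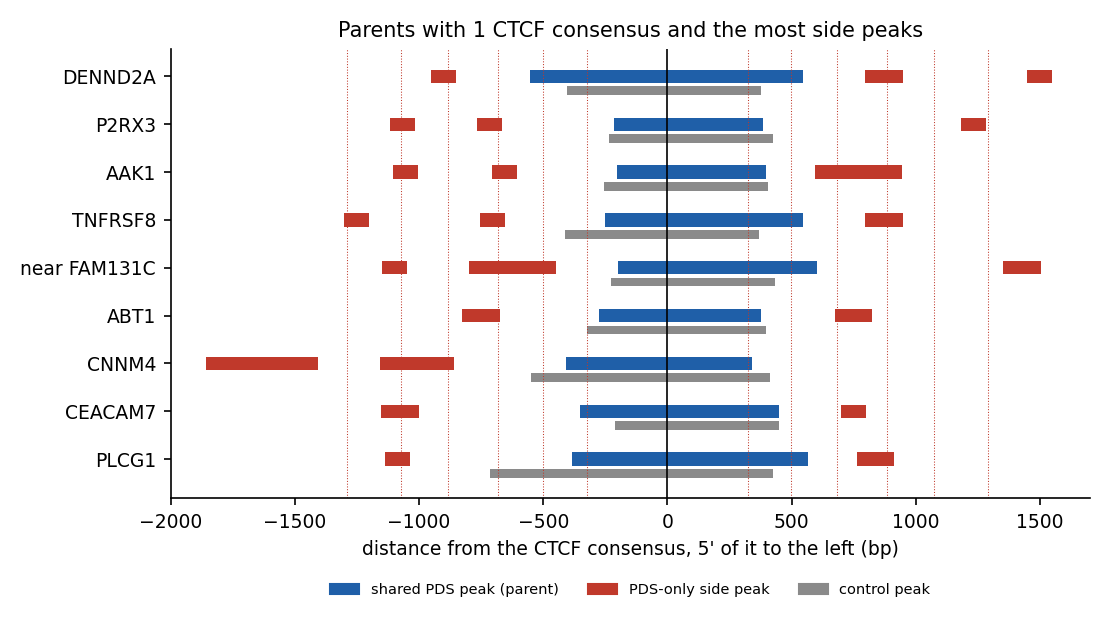
Parents with 1 CTCF consensus among the parents with the most side peaks, overall (5 upper rows) and at coding promoters (4 lower rows), drawn by distance from the consensus (horizontal axis, bp, 5′ of it to the left). Bars are the parent (blue), its side peaks (red) and the control peak over the parent (grey), and dotted lines mark the 6 maxima of the spacing at 324 to 1291 bp on both sides.

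At promoters of coding genes the parents with the most side peaks had 2. The strongest was at ABT1, an activator of basal transcription (chr6:26595801-26596450, fold 55.7, rank 144 of the list), where side peaks of fold 13.8 and 11.3 stood 750 bp on either side of the consensus, one of them over the region 255 bp upstream of the gene start. CNNM4 (a magnesium transporter), CEACAM7 (a cell adhesion protein), AQP6 (an aquaporin) and PLCG1 (phospholipase C gamma) followed, with parent folds of 32.4, 28.1, 26.9 and 26.1. The remaining ones were KHDC1, GAD1 (glutamate decarboxylase, which makes GABA), RAB14 (a Rab GTPase), CCDC149 and CDC37 (a co-chaperone of HSP90), with parent folds of 17.7 to 25.5. At GAD1 and RAB14 the side peaks flanked the parent on both sides, at KHDC1 both were downstream of the gene start, and at CDC37 one side peak was centred 4 bp upstream of the start while the parent was centred 1079 bp upstream.

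The side peaks of highest fold often exceeded their parents. Besides SIGLEC17P these lay in an intron of ACOT7 (an acyl-CoA thioesterase, fold 31.6), an exon of MRO (27.0), a region upstream of COL13A1 (a collagen, 26.8), introns of MTARC1 (a mitochondrial reductase, 25.3), SDK1 (an adhesion protein, 24.5) and P2RX6 (an ATP-gated channel, 24.2), an exon of PRKAG2 (a subunit of AMP-activated kinase, 24.7) and a non-coding promoter upstream of RIPK1 (24.7). In all of these pairs but that of MRO the side peak had a higher fold than its parent, which the choice of high side peaks favours. For ACOT7 the parent was 150 bp wide with a fold of 13.1, and for P2RX6 the parent had a fold of 6.60. At MTARC1 the side peak stood 335 bp 5′ of the consensus.

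Parents were wider than other shared peaks, with a median of 600 bp (quartiles 400 and 950) against 400 bp (200 and 600), a ratio of 1.5 (1.5 to 1.63 from the intervals of the medians). The share of shared PDS peaks with a side peak rose over 5 width classes of equal size from 6.77% (6.11 to 7.48%) in the narrowest to 26.8% (25.6 to 28.0%) in the widest. The median fold was 20.7 for parents and 18.01 for other shared peaks, a ratio of 1.15 (1.13 to 1.17). Parents had the higher median in each of the 5 width classes too, but by smaller margins. The medians were 16.8 against 15.1 in the narrowest class and 21.9 against 21.1 in the widest. In the control list the median folds were 28.0 for control parents and 29.0 for other shared control peaks, a difference that was not tested. For the 3225 parents and 21391 other shared peaks that overlapped exactly 1 control peak, one that in turn overlapped no other, the control counterparts had median widths of 600 and 360 bp. By fold the control counterparts of parents stood at the median percentile 63.0 of the control list and those of other shared peaks at 57.2, and the PDS peaks themselves at 69.5 and 57.4 of the PDS list. Parents were thus wider than other shared peaks in the control list too. The PDS peak was wider than its control counterpart in 54.1% of cases (52.4 to 55.8%), against 49.0% (48.3 to 49.6%) for other shared peaks. The control counterpart had a control-only side peak of its own in 258 cases (8.00%, 7.11 to 8.99%), against 3.18% (2.95 to 3.42%) for other shared peaks.

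The edges of the control peaks were compared on the sides with and without a side peak. For 2965 parents with side peaks on 1 side and 1 control counterpart, the control peak reached beyond the PDS peak on the side of the side peak in 49.2% (47.4 to 51.0%) and on the opposite side in 42.5% (40.7 to 44.3%).

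Parents lay less often at promoters (1 kb on either side of an annotated gene start) than other shared peaks, 15.1% (14.0 to 16.4%) against 21.4% (20.9 to 21.9%), a difference of −6.27 points (−7.54 to −4.93). Within width classes the odds ratio was 0.631 (0.571 to 0.698, Mantel-Haenszel), close to 0.655 without them. Seen the other way, 9.87% of the 5317 shared peaks at promoters and 14.3% of the 20551 others had a side peak. In the control list the promoter shares were 21.9% for parents and 20.4% for other shared peaks, a difference of 1.54 points whose interval spanned 0 (−0.94 to 4.23). Where each list was reduced to the 50% of its peaks with the lowest p-values, the rule gave 167 side peaks, most of them not among the 3621. There the promoter difference was 10.2 points (3.49 to 17.7) and the ratio of median folds 0.882 (0.832 to 1.04), both in the other direction. Over the full list parents lay more often between genes (31.8% against 26.6%) and in exons outside promoters (19.2% against 15.4%).

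G4 motifs were more frequent in parents, but the difference followed width. A motif lay in 25.2% (23.8 to 26.7%) of parents and 19.4% (18.9 to 19.9%) of other shared peaks, an odds ratio of 1.40 (1.29 to 1.52). The difference of 5.78 points was 10.3 points (3.23 to 17.8) in the 50% of peaks with the lowest p-values and 9.42 points for side peaks at least 250 bp from a control peak. Within width classes the odds ratio was 0.935 (0.855 to 1.02). In the 200 bp at the peak centre the shares were 10.3% and 10.9%, a difference of −0.62 points (−1.67 to 0.51), and the odds ratio within width classes was 0.870 (0.772 to 0.981). In the widest class 38.7% of parents and 38.6% of other shared peaks held a motif, and in the middle class 14.0% (11.3 to 17.2%) and 18.7% (17.6 to 19.8%). Of shared peaks away from promoters, those with a motif had a side peak in 19.7% and those without in 13.3%, and at promoters these shares were 11.4% and 9.05%. The medians of width were 650 and 350 bp away from promoters and 550 and 350 bp at promoters.

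The CTCF consensus was more frequent in parents within width classes too. It lay in 26.1% (24.7 to 27.6%) of parents and 16.7% (16.2 to 17.2%) of others, with an odds ratio of 1.76 (1.62 to 1.92) over all peaks and 1.33 (1.22 to 1.45) within width classes. A side peak stood beside 19.5% of the 4643 shared peaks with a consensus and 12.1% of the 21225 without. In control parents the shares were 19.3% and 19.2%, a difference of 0.08 points (−2.28 to 2.66).

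**Figure D4:**
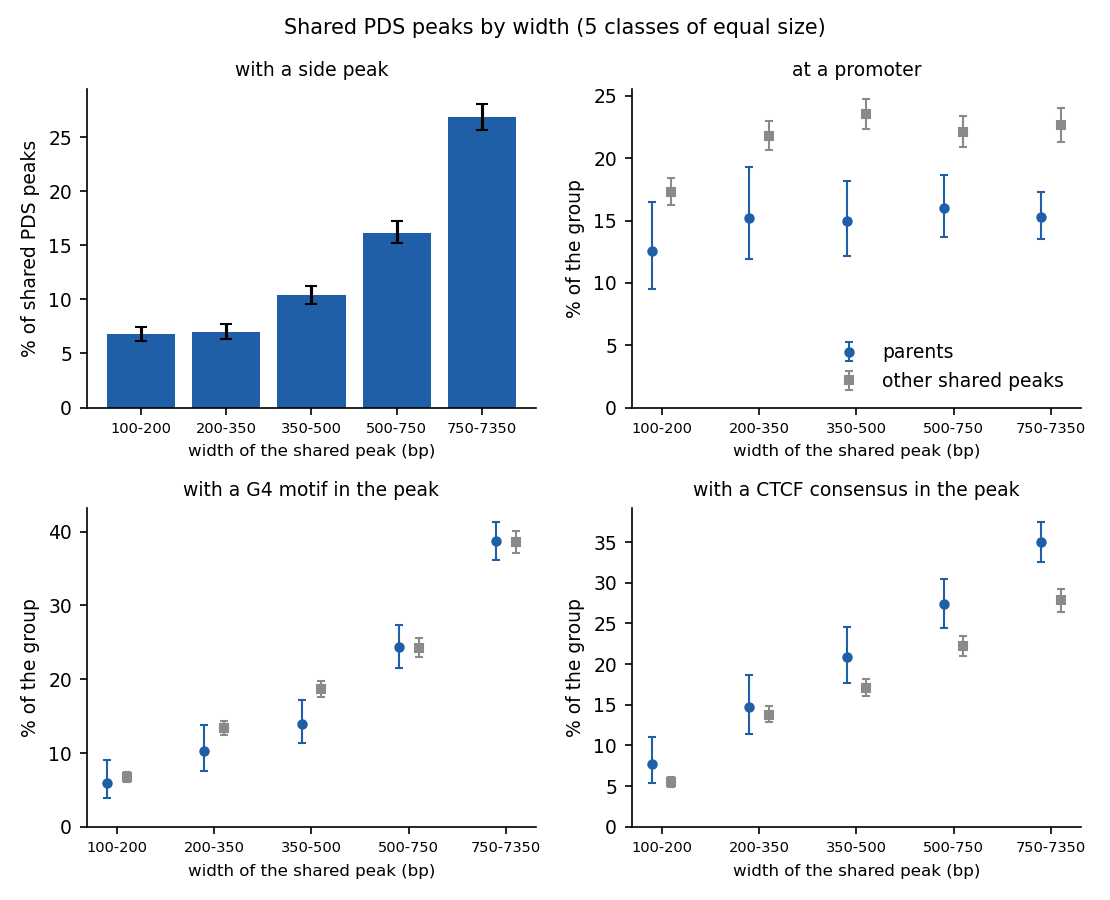
Shared PDS peaks in 5 width classes of equal size (horizontal axes, width in bp): the share with a side peak (bars), and the shares of parents (blue) and other shared peaks (grey) at a promoter, with a G4 motif and with a CTCF consensus (vertical axes, %), with Wilson 95% intervals. The share with a side peak rises from 6.77 to 26.8%, parents stay below the others at promoters in all classes, the G4 shares rise with width in both groups and are lower in parents in the 3 narrowest classes, and the consensus shares of parents are above those of the others in all 5 classes, with intervals that overlap in the 3 narrowest.

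Side peaks were compared with isolated PDS-only peaks, which were also absent from the control list, in the 200 bp at the peak centre. A consensus lay in 9 of 3621 side peaks (0.249%, 0.131 to 0.472%) and 5.88% (5.03 to 6.87%) of isolated ones, against 9.77% of all PDS peaks. A G4 motif lay in 6.74% (5.97 to 7.60%) of side peaks and 8.35% (7.33 to 9.50%) of isolated ones, a difference of −1.61 points (−2.99 to −0.28), against 10.0% of all PDS peaks and 10.3% of parents. This difference was not stable, as its interval spanned 0 under 8 of 11 other settings, for example in the central 100 bp (−0.72 points, −1.86 to 0.38) and against all other PDS-only peaks (−0.55 points, −1.75 to 0.65). Mean GC content was 51.6% (SD 6.59 over peaks), against 54.6% for isolated peaks, a difference of −2.95 points (−3.34 to −2.57), which was 0.14 points (−1.23 to 1.51) in the 50% of peaks with the lowest p-values. Side peaks also lay less often at promoters (11.6% against 14.2%) and more often between genes (33.9% against 27.6%). Control-only side peaks differed from isolated control-only peaks in the other direction in G4 motifs (8.39% against 5.39%), promoters (18.6% against 12.5%) and GC content (47.3% against 45.3%), and in the same direction in the consensus (1.01% against 12.1%).

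Short sites of other factors were counted on both strands in the central 100 bp. The GC box GGGCGG, bound by SP1 and its relatives, lay in 4.06% of side peaks and 7.04% of isolated PDS-only peaks, a difference of −2.98 points (−4.20 to −1.81), and in 9.07% of all PDS peaks. The GATA letters AGATAA, recognised by the erythroid factor GATA1, lay in 3.31% and 2.39%, a difference of 0.93 points (0.07 to 1.75). They lay in 2.97% of all PDS peaks and in 3.17% of parents. Between control-only side peaks and isolated control-only peaks the GATA difference was −0.57 points (−1.98 to 1.12). The ETS letters CCGGAAG lay in 0.469% and 0.915%, a difference of −0.45 points (−0.93 to −0.031), against 1.02% of all PDS peaks. For the CCAAT box, the E box CACGTG and the AP-1 letters TGACTCA the intervals of the difference spanned 0.

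Gene lists gave few members, since a parent had to cover a promoter. Among all coding genes, 3884 had a shared PDS peak at the promoter and 297 of them (7.65%, 6.85 to 8.52%) had a parent there. Of the listed genes with a shared peak at the promoter, 0 of 2 erythroid and blood transcription factors, 0 of 8 CTCF and cohesin genes, 0 of 7 DNA damage response genes, 0 of 4 DNA methylation genes and 0 of 1 G4 helicases had a parent. In these lists the numbers are too small to set against the share of all coding genes. VEGFA, the vascular growth factor, was the member found among the 5 genes with known promoter G4s that had a shared peak there. Its parent (chr6:43736801-43737800, fold 24.1) held a G4 motif and a consensus, and its side peak (fold 14.98) lay 850 bp away and 2020 bp upstream of the gene start. HMGN3, a nucleosome-binding protein, was found among 4 such HMG genes, with a parent 100 bp wide and a side peak (fold 9.35) centred 5 bp from the gene start. Of 7 genes named by the study at CTCF sites, 3 had a shared peak at the promoter, and 2 of these, VEGFA and VPS4A, had a parent. VPS4A, an ATPase of the ESCRT machinery, had a parent of fold 23.5 over the start and a side peak of fold 9.09 at 648 bp downstream. The VPS4A parent held 2 G4 motifs and no consensus, and its control counterpart had rank 125 by fold in the control list. VPS4A, VEGFA and HMGN3 were named by the study on these samples and are not independent examples. The study used a site in VPS4A as a negative control without CTCF or a G4, and whether it lies in this parent was not checked.

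Side peaks were not spread evenly over the genome. Parents made up 19.3% of shared peaks on chromosome 1 (17.98 to 20.8%), 18.5% on chromosome 22 (15.9 to 21.4%) and 17.4% on chromosome 7, and 3.11% on chromosome 13 (1.74 to 5.48%), 3.20% on chromosome X (2.04 to 5.01%) and 4.96% on chromosome 14. In the control list the share was highest on chromosome 22 (9.24%) and lowest on X (0.898%). Over the 23 chromosomes the shares of the 2 lists had a Pearson correlation of 0.683 and a Spearman correlation of 0.643, and over 185 bins of 10 Mb these were lower, 0.468 and 0.403. They are given as a description, since the shared peaks are the same loci in both lists. The correlation of the PDS share with the mean width of the shared peaks was 0.919 (Spearman 0.883) and with their mean GC content 0.190 (Spearman 0.276).

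The excess of chromosome 22 lay in 1 stretch. From 18 to 24 Mb, bounds chosen after the values in bins of 2 Mb were seen, 105 of 339 shared peaks (31.0%, 26.3 to 36.1%) were parents, and on the rest of the chromosome 37 of 428 (8.64%, 6.34 to 11.7%). The bin with the highest share, from 22 to 24 Mb, reached 37.4% (30.5 to 44.7%). The control list had the same stretch, with 68 of 347 shared peaks (19.6%, 15.8 to 24.1%) against 4 of 432 (0.926%, 0.361 to 2.36%), so that 6.98% of all control-only and 2.87% of all PDS-only side peaks lay there. Folds over IgG were lower in the stretch, with medians of 10.8 for shared PDS peaks against 19.6 on the rest of the chromosome, and of 8.66 against 13.6 for side peaks. Shared peaks were also wider there, with medians of 600 against 400 bp for PDS and 540 against 360 bp for control. The cause of the excess was not tested. Of 185 bins of 10 Mb with at least 50 shared peaks, the highest share was 32.3% (26.9 to 38.2%), at 200 to 210 Mb of chromosome 1, the median 12.3% and the lowest 1.27%.

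**Figure D5:**
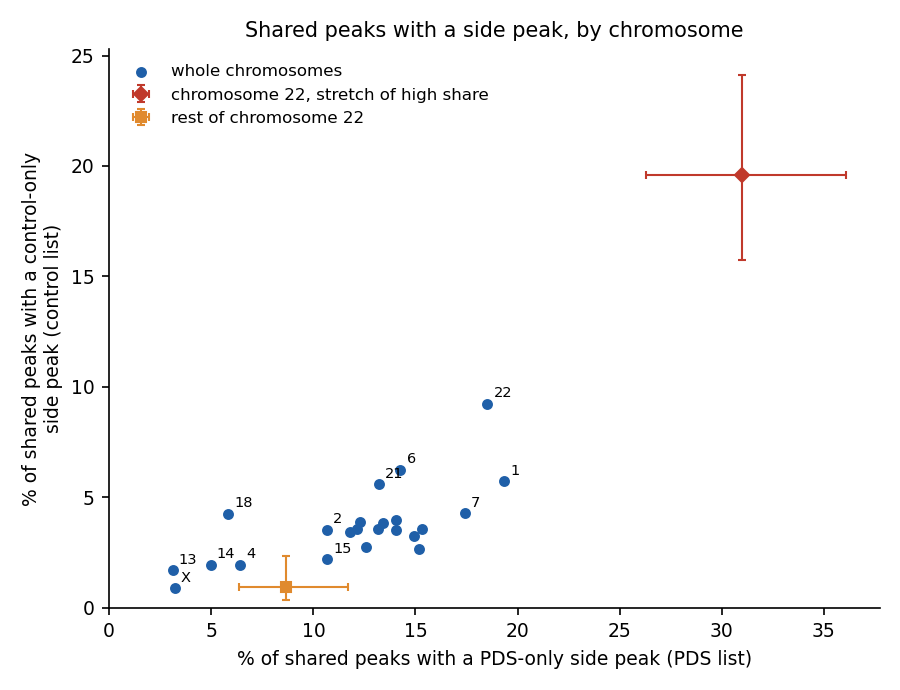
Share of shared peaks with a side peak for PDS (horizontal axis, %) and for control (vertical axis, %) for each chromosome (blue points, numbered where they do not crowd) and for chromosome 22 split into the stretch of high share (red diamond) and the rest (orange square, both with Wilson 95% intervals). The stretch stands at 31.0% and 19.6%, far from all whole chromosomes, and the rest of chromosome 22 at 8.64% and 0.926%.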

How the data were processed

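There were 7 ChIP-seq samples of K562 cells, 4 with CTCF antibody and 3 with IgG. The authors aligned reads to hg19 with Bowtie2 2.2.3, filtered them with SAMtools and ran the peak caller PePr once per condition, with the replicates together. The fold of each peak over the IgG samples of its own condition and its p-value (at most 1e-05 in both lists) were computed by the authors. The deposited score and adjusted p-value were not used. Folds were not compared between lists, and the depth of each sample is unknown.

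Here 24 PDS and 25 control peaks off chromosomes 1 to 22 and X were left out. An overlap of 1 bp made a peak shared. Genes came from GENCODE 44 on GRCh37, which has the chromosome names of hg19, and no peak passed a chromosome end. Motifs were searched in the GRCh37 sequence. The CTCF consensus of the study's introduction had 23632 matches and the G4 motif 379594. Odds ratios within width classes were pooled by the Mantel-Haenszel method. Peak classes, motif search, pooled odds ratio and period were tested on simulated data. Python 3.11.15, numpy 2.4.6, pandas 2.3.3, statsmodels 0.14.6, pyfaidx 0.9.0.4, matplotlib 3.10.9 and samtools 1.23.1 were used.

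The members, lists and tests were chosen with earlier results of these data known. Named loci are the 10 parents with the most side peaks, the same at coding promoters, the 10 side peaks of highest fold, and genes of the lists with a parent at the promoter. Sequences were taken by highest fold on chromosomes other than 8 and outside UTR exons. 1 of the 10 side peaks of highest fold is not reported here.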

Additional observations from a re-analysis of the deposited data

How the results depend on the processing

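Over 12 results, 92 values under other settings were computed. Of these, 53 stayed within the interval of the value given (counts within 1.5 times), 33 moved and 6 changed direction. Where each list was reduced to the 50% of its peaks with the lowest p-values, the rule gave 167 side peaks. Most of these were not among the 3621, so the values do not follow the same members. The share of shared peaks with a side peak was then 1.24%, the excess over the control list 3.999 points, the width ratio of parents 1.25 and the fold ratio 0.882 (reversed). The promoter difference was 10.2 points (reversed), the G4 difference of parents 10.3 points and of side peaks −4.13 points, and the GC difference 0.14 points (reversed). The shares downstream of the gene start and of the consensus were 39.1% and 59.5% (the latter reversed, 44.5 to 73.0%). With a gap limit of 500 bp the share of parents was 10.3%, the excess over the control list 29.5 points, the G4 difference of parents 4.15 points and the consensus difference of side peaks −4.61 points. With 2 kb these first 2 values were 15.9% and 39.9 points, and the fold ratio was 1.12. Shared peaks with 50% reciprocal overlap gave an excess of 32.9 points, and merging peaks within 200 bp gave a share of 11.4% and an excess of 33.8 points. Side peaks at least 250 bp from a control peak numbered 2331, with a share of parents of 8.78%, an excess of 35.3 points, a width ratio of 1.88, a G4 difference of parents of 9.42 points, a GC difference of −2.32 points and 50.7% downstream of the gene start (reversed).

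The G4 difference of parents was 8.38 points with loops up to 12 nt, 0.23 points in 1000 bp and −0.62 points in 200 bp at the centre (reversed). That of side peaks was −3.61 points with these loops and −0.020 points with runs of 2 or more G. The consensus difference of side peaks was −2.12 points in the central 100 bp, −3.24 points in whole peaks and −4.39 points against all other PDS-only peaks, and the GC difference was −2.44, −2.11 and −1.77 points. In these the cause was not tested.

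Alternatives chosen after seeing the data were the spacing under 7 settings, with a best period of 186 to 191 bp in all of them, and 8 results without 18 to 24 Mb of chromosome 22, none of which moved beyond its interval.

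No paired analysis was possible because the replicates of a condition share 1 peak list, and for the same reason none was left out. Whether the control folds rest on more IgG samples than the 1 given here is not known. Differences between the lists in depth, window step and IgG samples cannot be told apart from the treatment.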
